A study of Mus musculus with 4 samples.

Results

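The transcripts of 10 Wnt ligand genes (Wnt1, Wnt2b, Wnt3, Wnt3a, Wnt4, Wnt5a, Wnt5b, Wnt7a, Wnt7b and Wnt8b) were followed in day 6 cultures labelled as mouse retinal organoids, with and without doxycycline (Dox). The members were taken by symbol, and each of the 10 symbols matched 1 of the 55426 rows of the expression table. The table holds 19 Wnt ligand genes in all. Such organoids grow from pluripotent stem cells that are steered in culture towards eye-field and retinal progenitors. The 4 libraries came from a single line that the labels call Rx:GFP Mettl3 KO, which also carries Dox-inducible HA-METTL3. METTL3 is the enzyme that methylates adenosines in messenger RNA (m6A). The untreated group (n = 2) had no Dox, and the Dox group (n = 2) had 2 µg/ml for 6 days. Both groups carried the knockout and the inducible construct, and both were grown in GMEM that held AGN (0.1 µM), KSR (5%) and, at 1% each, sodium pyruvate, β-ME and NEAA. The titles read EV and EV+Dox, and EV is not explained. The labels do not say whether the line is 1 clone or whether replicates came from separate cultures, so p-values measure the spread between these libraries, which may be technical.

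Wnt ligands are secreted, lipid-modified glycoproteins that pattern the neural tube from its dorsal midline and from the midbrain-hindbrain boundary. Canonical ligands bind a Frizzled receptor with LRP5 or LRP6, stabilise β-catenin and switch on TCF/LEF target genes. Others, such as WNT5A, act largely through planar polarity and calcium routes. In the anterior neural plate, Wnt activity favours caudal and dorsal fates, and the eye field forms where it is held low. The eye-field factor SIX3 is known from mouse embryos to repress Wnt1 and Wnt8b.

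The authors gave expression as FPKM, fragments scaled to transcript length and library depth, a scale on which levels of different genes can be compared per length. Steps in the low values put the depth at 31750000 to 34600000 fragments per library. On log2(FPKM + 1), the correlation (Pearson's r, over genes that are not independent of each other) was 0.990 and 0.987 within groups and 0.960 to 0.966 between them. Mettl3, the targeted gene, was at 40.33 and 37.98 FPKM without Dox and at 45.2 and 46.37 FPKM with it (adjusted p = 0.122, limma). The gene-level value does not separate the inducible copy from the knocked-out locus. The labelled tissue was checked with eye-field genes. Without Dox, Rax stood at 1.12 and 0.82 FPKM and Six6 at 0.01 FPKM in both libraries, while Six3 was at 7.7 and 7.05 FPKM and Lhx2 at 26.72 and 24.3 FPKM. With Dox, Rax was at 201.14 and 227.98 FPKM and Six6 at 79.22 and 92.44 FPKM, Six3 at 83.02 and 108.75 FPKM and Lhx2 at 277.17 and 323.88 FPKM. By Rax and Six6, then, only the Dox libraries matched the labelled tissue, while Six3 and Lhx2 were present without Dox at lower levels. Pax6, which other neural progenitors express too, was at 118.86 to 130.69 FPKM in the 4 libraries, and its groups overlapped.

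The Wnt ligand transcripts were fewer and of another kind with Dox. Wnt7b and Wnt8b, the most abundant ligands without Dox, fell by more than 10 times each, and Wnt1, Wnt5a and Wnt7a fell as well. Wnt5b ran the other way and rose about 2 times. The summed level of the 10 ligands was 233.62 and 218.38 FPKM without Dox and 48.15 and 51.44 FPKM with Dox. The ratio of the means, untreated over Dox, was 4.54. Leaving Wnt5b out of the sum raised that ratio to 11.9. Leaving out Wnt7b and Wnt8b instead brought it to 1.06, so these 2 ligands carried nearly all of the difference in the sum. In the sum without them, the rise of Wnt5b largely offset the falls of Wnt1, Wnt5a, Wnt7a and other ligands.

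**Figure D1:**
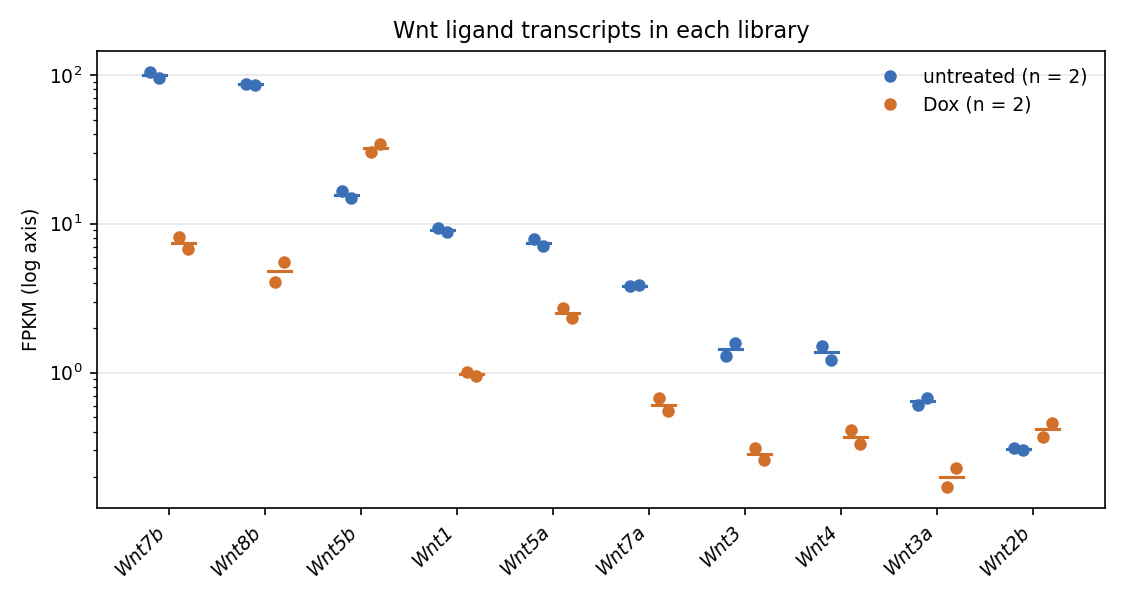
FPKM of each of the 10 Wnt ligands (log axis), ordered by the untreated mean. Points are single libraries, 2 untreated and 2 Dox, and short bars are group means. Wnt7b falls from about 100 to about 7 FPKM, Wnt5b rises from 15.7 to 32.2 FPKM, and in each ligand the 2 groups do not overlap.

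The make-up of the ligand transcripts changed with their amount. Without Dox, Wnt7b made up 45.02% and 43.4% of the summed FPKM and Wnt8b 37.3% and 39.1%. Wnt5b made up 7.10% and 6.78%. With Dox, Wnt5b made up 62.9% and 66.2%, while Wnt7b made up 16.9% and 13.04% and Wnt8b 8.45% and 10.8%. Wnt5a, the close relative of Wnt5b, took 3.23% to 3.35% without Dox and 4.51% to 5.65% with it.

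**Figure D2:**
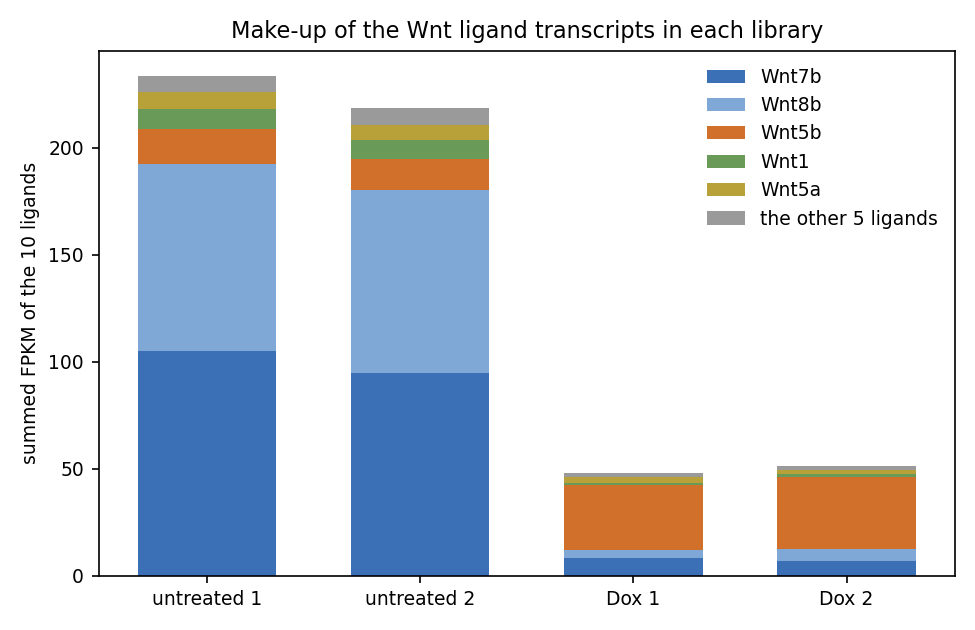
Stacked bars give the FPKM of the 10 Wnt ligands in each of the 4 libraries, with 5 ligands drawn singly and the other 5 pooled. Bars for the untreated libraries reach 218.38 to 233.62 FPKM and are mostly Wnt7b and Wnt8b, while those for the Dox libraries reach 48.15 to 51.44 FPKM and are mostly Wnt5b.

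The comparison ligand by ligand used limma on log2(FPKM + 1) over 13931 genes whose mean reached 1 FPKM, with Benjamini-Hochberg adjustment over all of them and a threshold of 0.05. Of the 10 ligands 6 passed this filter. Of these 6, 5 were called lower and 1 higher with Dox, where 9.31% of all tested genes were called, 4.87% lower and 4.44% higher. The libraries of the 2 groups were fully apart in all 6, as they were in 26.9% of tested genes with Dox lower and in 26.5% with Dox higher. Wnt1 and Wnt7a passed the filter through their untreated level alone, since their Dox means were under 1 FPKM, and the 6 were not drawn at random. In a single gene, 2 libraries against 2 cannot give an exact two-sided permutation p under 0.333, so the p-values rest on the variance that limma shares across genes. In bulk RNA, fewer cells making a ligand and less transcript per cell cannot be told apart.

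Most markers of the cortical hem and roof plate were lower with Dox, as most ligands were. Without Wnt genes, the 7 markers summed to 124.92 and 129.08 FPKM without Dox and to 13.59 and 14.08 FPKM with it, mostly Rspo2 and Rspo3. Of 6 tested, 5 were called lower, and Msx1 did not pass (adjusted p = 0.0519, limma). Wnt2b, a Wnt gene of that marker list, was higher with Dox. Msx2, a factor of the dorsal midline list below, is named after its values were seen. It rose from 4.2 and 4.07 FPKM to 21.66 and 23.61 FPKM. The choroid plexus marker Ttr did not exceed 0.3 FPKM. The 4 neural crest markers, of which 4 were called lower, summed to 29.93 and 28.59 FPKM without Dox and to 3.38 and 1.87 FPKM with it. The 4 pigment epithelium markers summed to 2.22 and 2.31 FPKM without Dox and to 60.59 and 61.23 FPKM with it, and 3 of 3 tested were called higher. Surface epithelium markers summed to 47.65 to 57.66 FPKM in the 4 libraries, and 0 of 4 tested passed in limma, also at an unadjusted p under 0.05. Hox genes of the hindbrain and spinal cord summed to 0.09 FPKM or less, and 2 of the 4, Hoxb1 and Hoxc6, were listed at 0 in every library. Mesenchyme markers summed to 7.73 to 10.54 FPKM in the 4 libraries, and of 4 tested 1, Pdgfra, was called higher and 0 lower. Markers of pluripotent cells summed to 16.97 to 24.69 FPKM in the 4 libraries, and 0 of 4 tested were called. Of the called markers, 3 of the 5 hem and roof plate genes, 3 of the 4 neural crest genes and 2 of the 3 pigment genes likewise passed the filter through 1 group only. The part of these cell types in the values of the ligands and of the pathway genes was not tested.

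Wnt8b, a ligand of the dorsomedial forebrain and of the embryonic diencephalon, had the largest fall among the 10. Its level was 87.09 and 85.29 FPKM without Dox and 4.07 and 5.57 FPKM with Dox, about 8781 to 9269 and 405 to 576 fragments. The untreated values lay within a few percent of each other and far above both Dox values. The log2 fold change was -3.92 (SE 0.132, 95% interval -4.25 to -3.59, adjusted p = 1.04e-04 in limma), and the means differed by 17.9 times on the FPKM scale. Only 3 of the 13931 tested genes had a lower log2 fold change. The gene lies on GRCm38 chromosome 19 from 44493472 to 44514273, on the plus strand, and shares no exon sequence with another annotated gene.

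Wnt7b, a canonical ligand of the forebrain epithelium that acts with RECK and ADGRA2 on brain vessels, was the most abundant of the 10 without Dox. Its values were 105.18 and 94.81 FPKM without Dox and 8.14 and 6.71 FPKM with it. The lowest untreated library stood more than 10 times above the highest Dox library. The log2 fold change was -3.59 (SE 0.109, 95% interval -3.86 to -3.32, adjusted p = 7.42e-05 in limma). The exons of Wnt7b (chromosome 15, 85535437 to 85582473, minus strand) share 324 bases with AU022754 on the opposite strand. That gene was listed at 0.02 to 0.98 FPKM, far under the level of Wnt7b in every library.

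Wnt7a, its nearest relative, was scarce and moved the same way. It stood at 3.79 and 3.89 FPKM without Dox and at 0.67 and 0.55 FPKM with Dox. Its log2 fold change was -1.59 (SE 0.124, adjusted p = 0.00139, limma). On this scale a low gene's change is understated, and the means of Wnt7a differed by 6.30 times on the FPKM scale itself.

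Wnt1, the ligand of the midbrain-hindbrain boundary and the dorsal midline, stood at 9.42 and 8.77 FPKM without Dox and at 1.01 and 0.95 FPKM with Dox. The replicates of either group differed by under 1 FPKM. The log2 fold change was -2.35 (SE 0.110, 95% interval -2.62 to -2.07, adjusted p = 2.55e-04 in limma). Other genes of the midbrain-hindbrain boundary were scarce or higher with Dox. En1, En2, Pax5 and Pax8 did not exceed 0.15 FPKM in any library, with Dox or without. At these low levels En2 was at 0.12 FPKM in both untreated libraries and at 0.03 FPKM in both Dox libraries. Pax5 went from 0.11 and 0.07 FPKM to 0.01 and 0 FPKM, also lower with Dox. Pax8 went up, from 0.03 FPKM in both untreated libraries to 0.1 and 0.15 FPKM, and the groups of En1 overlapped. Pax2, which also marks the optic vesicle and stalk, was at 0.22 and 0.2 FPKM without Dox and at 20.56 and 30.37 FPKM with it, opposite to Wnt1. Fgf8, the growth factor gene of that boundary, was at 3.16 and 2.99 FPKM without Dox and at 6.06 and 5.92 FPKM with it (log2 fold change 0.78, adjusted p = 0.00904 in limma), a call lost with no filter (adjusted p = 0.0578).

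Wnt5a and Wnt5b encode close relatives that act mainly outside the β-catenin route, and they went in opposite directions. Wnt5a, which is also made by the cortical hem, was at 7.83 and 7.05 FPKM without Dox and at 2.72 and 2.32 FPKM with it. Its log2 fold change was -1.26 (SE 0.118, 95% interval -1.56 to -0.97, adjusted p = 0.00267 in limma). Wnt5b was at 16.59 and 14.81 FPKM without Dox and at 30.28 and 34.06 FPKM with it, so both Dox libraries lay well above both untreated ones. Its log2 fold change was 0.99 (SE 0.0963, 95% interval 0.75 to 1.23, adjusted p = 0.00300 in limma). The means differed by 2.05 times on the FPKM scale.

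The other 4 ligands had means under 1 FPKM and were not part of that test. Wnt3, known for its part in starting the primitive streak, was at 1.29 and 1.57 FPKM without Dox and at 0.31 and 0.26 FPKM with it. Wnt4, known for kidney tubule and ovary formation, was at 1.51 and 1.22 FPKM without Dox and at 0.41 and 0.33 FPKM with it. Wnt3a, the cortical hem ligand needed for the hippocampus, was at 0.61 and 0.67 FPKM without Dox and at 0.17 and 0.23 FPKM with it. All 3 had both Dox libraries below both untreated libraries, and the smallest of these values, that of Wnt3a in Dox replicate 1, stands for about 13.6 fragments.

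Wnt2b, a ligand of the retinal margin and the dorsal optic cup, was at 0.31 and 0.3 FPKM without Dox and at 0.37 and 0.46 FPKM with it. These values stand for about 30.7 to 46.6 fragments. In the fit with no filter, over 27532 genes, the log2 fold change of Wnt2b was 0.12 (95% interval -0.04 to 0.27, adjusted p = 0.408 in limma). In that fit Wnt3 passed the threshold (log2 fold change -0.92, adjusted p = 0.0463). Wnt3a (-0.45, adjusted p = 0.0616) and Wnt4 (-0.79, adjusted p = 0.0659) did not. The same fit called 1.49% of genes lower and 1.22% higher. All 6 ligands called before were called in it too.

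**Figure D3:**
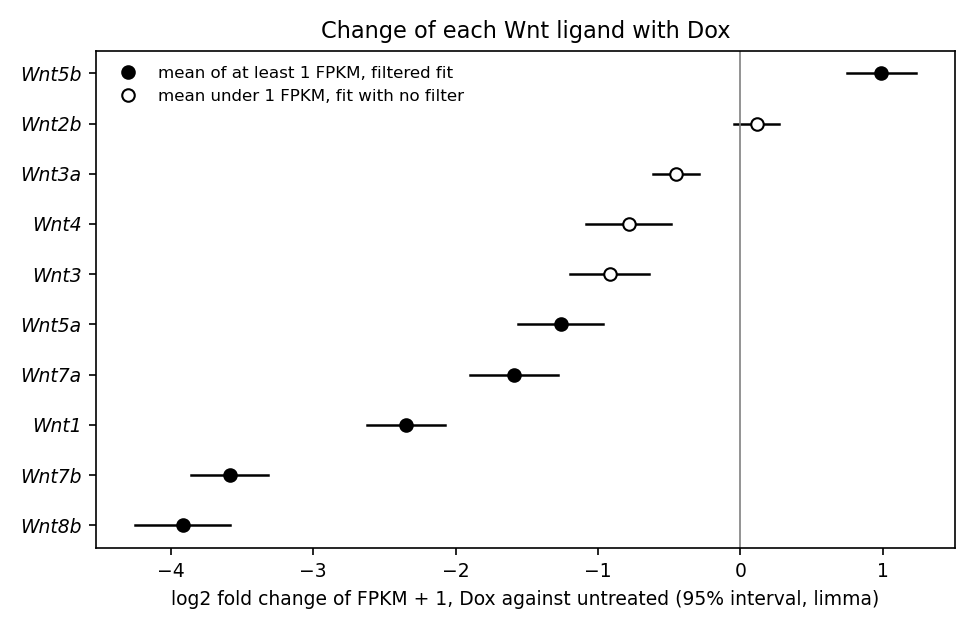
The log2 fold change of FPKM + 1, Dox against untreated, with its 95% interval from limma, for each ligand. Filled points are the 6 ligands of the filtered fit and open points the 4 ligands with means under 1 FPKM, from the fit with no filter. Wnt8b (-3.92) and Wnt7b (-3.59) lie furthest left, Wnt5b (0.99) lies furthest right, and the interval of Wnt2b spans 0.

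In 8 of the 10 ligands both Dox libraries lay below both untreated ones, and in the other 2, Wnt2b and Wnt5b, both lay above. Among the 27532 genes with a mean above 0, untreated and Dox libraries were fully apart in 21.8% with Dox lower and in 20.4% with Dox higher. The order of levels was Wnt7b, Wnt8b, Wnt5b, Wnt1, Wnt5a, Wnt7a, Wnt3, Wnt4, Wnt3a and Wnt2b without Dox. Only Wnt3 and Wnt4 overlapped as neighbours in it. With Dox the order was Wnt5b, Wnt7b, Wnt8b, Wnt5a, Wnt1, Wnt7a, Wnt2b, Wnt4, Wnt3 and Wnt3a, and only Wnt2b and Wnt4 overlapped as neighbours. Thus Wnt5b moved from the third place to the first and Wnt2b from the last to the seventh.

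The promoters of 3 ligands are shown because these genes moved differently, with Wnt8b and Wnt1 lower and Wnt5b higher with Dox. RefSeq (GRCm38.p6) had promoter windows for 8 of the 10 ligands, from 250 bases before to 50 after a start site, 10 windows in all with 3 for Wnt5b. They were searched on both strands for TAATTA (a homeodomain core), CTTTGA (a TCF/LEF core), and CAGCTG and CAGATG (E-boxes of proneural factors). Capitals mark matches. The lines give Wnt8b (chr19:44493222-44493521, plus strand), Wnt1 (chr15:98789607-98789906, plus strand) and the outermost start of Wnt5b (chr6:119544298-119544597, minus strand).
Wnt8b: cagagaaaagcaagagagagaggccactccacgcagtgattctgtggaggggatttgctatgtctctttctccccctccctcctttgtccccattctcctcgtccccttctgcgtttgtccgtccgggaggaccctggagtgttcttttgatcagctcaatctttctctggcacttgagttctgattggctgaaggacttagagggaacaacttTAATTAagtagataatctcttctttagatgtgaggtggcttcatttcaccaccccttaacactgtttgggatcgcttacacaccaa
Wnt1: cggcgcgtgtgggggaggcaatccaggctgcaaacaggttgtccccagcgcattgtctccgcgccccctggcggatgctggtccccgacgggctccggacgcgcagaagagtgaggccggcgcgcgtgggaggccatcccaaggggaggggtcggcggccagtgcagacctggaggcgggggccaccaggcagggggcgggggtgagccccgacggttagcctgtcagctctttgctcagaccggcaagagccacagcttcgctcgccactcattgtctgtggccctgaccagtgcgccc
Wnt5b: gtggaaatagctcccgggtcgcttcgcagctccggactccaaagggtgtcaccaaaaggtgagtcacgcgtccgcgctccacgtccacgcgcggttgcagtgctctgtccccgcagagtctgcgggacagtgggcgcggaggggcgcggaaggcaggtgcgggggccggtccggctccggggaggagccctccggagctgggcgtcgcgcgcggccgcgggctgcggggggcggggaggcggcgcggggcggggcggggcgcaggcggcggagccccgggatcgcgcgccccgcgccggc

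The Wnt8b window held 1 TAATTA, a motif found in 5.29% of all 32851 promoter windows and in no other ligand window. An inner Wnt5b window held 1 CTTTGA (16.0% of all windows) and 1 CAGATG (17.15%). The 3 windows shown also differ in base composition. Wnt8b had 6 CG dinucleotides and 48.3% G and C, close to the medians of all windows (7 and 52.7%), while Wnt1 had 26 and 70.7% and this start of Wnt5b 47 and 78.0%. The inner Wnt5b windows had 7 and 4 CG dinucleotides. Wnt3, Wnt7a, Wnt3a and Wnt4, lower with Dox, had 24, 42, 45 and 51, and Wnt2b, higher with Dox, had 43. Whether base composition goes with direction was not tested. The data hold no measurement of binding or of which start was used, so the matches describe letters only.

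METTL3 writes m6A mainly within short motifs of which GGACT is the commonest form, so GGACT was counted in 1 transcript of each ligand (GENCODE M21, the longest coding sequence). The count was 3 in Wnt8b, 3 in Wnt7b, 2 in Wnt1 and 4 in Wnt5b. Per kilobase these were 0.889, 0.892, 0.841 and 1.71, against a median of 1.05 over 11624 tested coding genes. Wnt3a (1.81), Wnt4 (1.67) and Wnt5a (1.43), all lower with Dox in both libraries, lay above that median, as Wnt5b did. Wnt3 (0.975) and Wnt7a (0.946) lay below it, and Wnt2b (1.21) above it. Whether density goes with direction was not tested. Wnt7a and Wnt7b had none in their coding sequence, and Wnt8b had 3. The last one in the coding sequence of Wnt8b, Wnt5a and Wnt5b is shown with GGACT in capitals, at chr19:44511894-44511914 (plus strand), chr14:28522707-28522727 (plus strand) and chr6:119440429-119440449 (minus strand). Methylation was not measured in these libraries, and a match is no evidence of a methylated site.
Wnt8b: ctgtgcggGGACTgcgggcta
Wnt5a: cccagtccGGACTactgtgtg
Wnt5b: ctgcctcgGGACTggctgtgg

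Several Wnt genes sit beside another Wnt gene, and the neighbours gave further values. Wnt9a lies 16175 bases from Wnt3a on chromosome 11, with no coding gene between them. It was at 4.97 and 4.65 FPKM without Dox and at 1.38 and 1.44 FPKM with it, which is -1.27 on the log2 scale (SE 0.114, adjusted p = 0.00226, limma). Wnt10b lies 11706 bases from Wnt1 on chromosome 15 and was at 0.49 and 0.37 FPKM without Dox and at 0.22 and 0.1 FPKM with it. Wnt9b lies 24328 bases from Wnt3 and was at 0.07 to 0.12 FPKM in the 4 libraries, with groups that overlapped. Wnt9a was the only one of the other 9 Wnt ligand genes to be tested. Of the rest, Wnt6 had the highest value, with 0.55 and 0.46 FPKM without Dox and 0 and 0.02 FPKM with it. The Dox values lie under the level of 3 fragments per library, and the untreated mean was 9.79 times that level. The ratio makes no allowance for sampling error, and the untreated values rest on only about 29.2 to 32.4 fragments.

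Among genes that make ligands ready for release, Wls fell and the others mostly did not pass the test. Of 12 tested genes of lipidation, transport and release, 1 was called lower, 1 higher and 10 neither (median log2 fold change 0.03, against -0.0042 over all tested genes). Wls, the carrier that takes lipidated Wnt proteins to the cell surface, went from 88.48 and 87.93 FPKM to 46.31 and 43.28 FPKM (log2 fold change -0.96, SE 0.0670, adjusted p = 9.36e-04 in limma). Gpc4, a glypican of the cell surface, rose by 0.68 on the log2 scale (adjusted p = 0.00518), a call lost without Dox replicate 2 (adjusted p = 0.0552). The log2 fold changes of Tmed2 (0.03) and Vps29 (0.12), which serve protein sorting, did not pass.

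The R-spondins, secreted proteins that amplify Wnt signals by protecting Frizzled receptors, included the gene whose profile was most like that of Wnt7b. Likeness was the root mean square difference over the 4 libraries of log2(FPKM + 1) centred on each gene's mean. By it Rspo2 (0.127), the chemokine receptor gene Cxcr4 (0.136) and Rspo3 (0.172) came closest to Wnt7b. With 2 libraries per group, a small difference mainly means a similar change with Dox. The log2 fold changes of Rspo2, Cxcr4 and Rspo3 were -3.62, -3.37 and -3.32, beside -3.59 for Wnt7b. Rspo2 went from 67.66 and 70.34 FPKM to 4.59 and 4.77 FPKM, and Rspo3 from 35.79 and 36.75 FPKM to 2.72 and 2.73 FPKM. Of 6 tested genes of the R-spondin axis 3 were called lower and 1 higher, with a median log2 fold change of -1.52. Rspo1 (-2.89) was the third lower gene. The higher one was Lgr4, an R-spondin receptor, which went from 4.83 and 4.67 FPKM to 18.03 and 21.1 FPKM (log2 fold change 1.83, adjusted p = 5.30e-04 in limma). Lgr5 (0.63, adjusted p = 0.0678) and Znrf3 (-0.15, adjusted p = 0.567) did not pass.

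Receptor genes moved both ways. Of 18 tested receptors and co-receptors 5 were called lower and 4 higher (median log2 fold change 0.04). Fzd5, a Frizzled gene known for its role in the eye field, went from 1.1 and 0.92 FPKM to 44.55 and 61.52 FPKM, and its Dox values exceeded its untreated values by over 40 times. Its log2 fold change was 4.73 (SE 0.166, adjusted p = 1.16e-04 in limma). Fzd8, its close relative, had a log2 fold change of 2.04. Fzd10 (-2.24) and Fzd9 (-1.63) fell, Fzd10 from 16.33 and 15.22 FPKM to 2.47 and 2.64 FPKM. Ptk7 (0.12) and Ryk (-0.04) did not pass. Reck and Adgra2 are named here after their values were seen, because they serve Wnt7 ligands. Reck was at 2.4 and 2.15 FPKM without Dox and at 5.42 and 6.25 FPKM with it (log2 fold change 1.06, adjusted p = 0.00543 in limma), a call lost with no filter (adjusted p = 0.0553). Adgra2 was at 1.46 and 1.27 FPKM without Dox and at 1.81 and 2.25 FPKM with it and did not pass (0.35, adjusted p = 0.206).

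Tested genes of the Wnt antagonist list, which holds Shisa2 beside secreted proteins, rose or did not pass the test. Of 6 tested genes 3 were called higher and 0 lower in limma, and at an unadjusted p under 0.05 the counts were 3 and 1 (Frzb). Wif1, named after its values were seen, had a mean under 1 FPKM and was called lower in the fit with no filter (log2 fold change -0.62, adjusted p = 0.0401). The 6 tested genes' median log2 fold change was 0.79. Shisa2, which retains Frizzled receptors inside the cell, went from 7.06 and 5.79 FPKM to 191.62 and 227.17 FPKM (log2 fold change 4.82, adjusted p = 6.96e-05 in limma). Dkk3, a member of the Dickkopf family, had a log2 fold change of 2.96. Sfrp2, a soluble Frizzled-like binder of Wnts, went from 75.79 and 67.8 FPKM to 198.61 and 244 FPKM (1.61, adjusted p = 0.00109). Sfrp1 stood at 83.39 and 79.62 FPKM without Dox and at 77.54 and 81.64 FPKM with it, and its groups overlapped. Frzb (-0.40, adjusted p = 0.0598) did not pass.

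**Figure D4:**
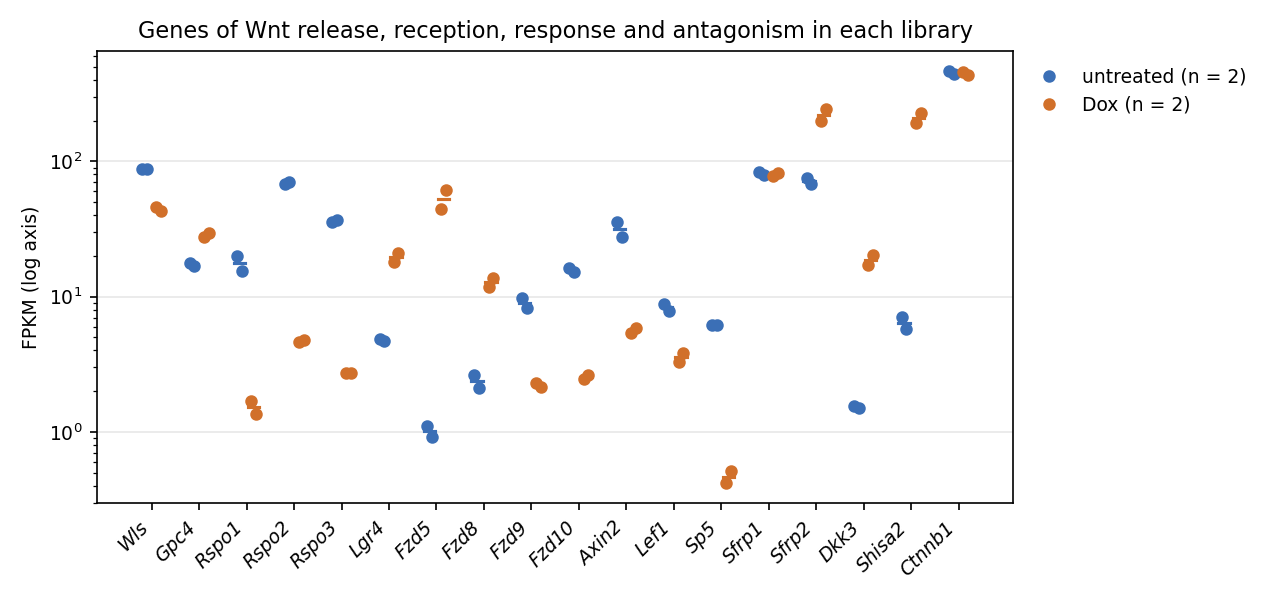
FPKM (log axis) of 18 genes of Wnt release, amplification, reception, response and antagonism. Points are single libraries, 2 untreated and 2 Dox, and short bars are group means. Wls, Rspo1, Rspo2, Rspo3, Fzd9, Fzd10, Axin2, Lef1 and Sp5 are lower with Dox, Gpc4, Fzd5, Fzd8, Lgr4, Dkk3, Shisa2 and Sfrp2 are higher, and Sfrp1 and Ctnnb1 overlap.

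Of 14 tested genes of the canonical signalling chain 1 was called higher and 0 lower in limma. Over all tested genes 9.31% were called. At an unadjusted p under 0.05 in limma the counts were 3 higher and 2 lower, against 1673 and 1663 of all 13931 tested genes. Ctnnb1, which encodes β-catenin, was at 462.96 and 445.92 FPKM without Dox and at 455.54 and 431.98 FPKM with it, and Csnk1a1, a kinase that primes β-catenin for destruction, had a log2 fold change of 0.14 that did not pass. Tcf7l1, a TCF factor that represses Wnt targets, went from 16.77 and 13.3 FPKM to 34.25 and 42.46 FPKM (1.30, adjusted p = 0.00539 in limma). That call was lost without Dox replicate 2 (adjusted p = 0.0567) and with no filter (adjusted p = 0.0661).

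Of the 8 tested genes that canonical Wnt signals commonly switch on, 3 were called lower, 0 higher and 5 neither, with a median log2 fold change of -0.25. At an unadjusted p under 0.05 in limma, 2 of the 8 were higher and 4 lower, against 1673 and 1663 of all 13931 tested genes. Axin2, a feedback inhibitor and widely used reporter of Wnt activity, went from 35.39 and 27.35 FPKM to 5.42 and 5.85 FPKM (log2 fold change -2.28, SE 0.136, adjusted p = 5.82e-04 in limma). Sp5, a transcription factor gene, went from 6.18 and 6.13 FPKM to 0.42 and 0.51 FPKM (-2.29, adjusted p = 3.53e-04), and it passed the filter through its untreated level alone. Lef1 fell by 1.03 on the log2 scale (adjusted p = 0.00533), a call lost with no filter (adjusted p = 0.0524). Ccnd1 (0.32, adjusted p = 0.106) and Nkd1 (-0.35, adjusted p = 0.147) did not pass.

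In the planar polarity and calcium branch, to which Wnt5a and Wnt5b are usually assigned, 3 of 9 tested genes were called lower and 1 higher (median log2 fold change 0.0088). The lower genes were Dact1 (-1.10), Celsr3 (-0.71) and Vangl2 (-0.70), and Camk2d (0.62) was the higher one. These calls rested on the number of libraries and genes. Without untreated replicate 1 or without Dox replicate 1, 0 of the 9 genes were called, and with no filter 0 were called (adjusted p of 0.0617 to 0.123 for these 4 genes in limma). Nfatc3 (0.0088) and Celsr2 (0.06) did not pass.

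Transcription factors of Wnt-producing dorsal midline and midbrain-hindbrain tissue were mostly lower. Of 14 tested genes 8 were called lower, 5 higher and 1 neither (Msx1, adjusted p = 0.0519 in limma), with a median log2 fold change of -0.81. Zic1, a zinc finger gene of the dorsal neural tube, went from 70.99 and 66.83 FPKM to 3.13 and 3.37 FPKM (-4.04, adjusted p = 4.17e-05). Emx2, a homeobox gene of the dorsal forebrain, went from 78.18 and 75.76 FPKM to 11.01 and 6.26 FPKM (-3.06). Barhl2, a homeobox gene of the diencephalon, fell by 2.58 on the log2 scale. Of the 8 lower factors 2, Barhl2 and Lmx1a, had Dox means under 1 FPKM, and of the 5 higher ones 1, Pax2, had an untreated mean under 1 FPKM, so these passed the filter through 1 group.

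**Figure D5:**
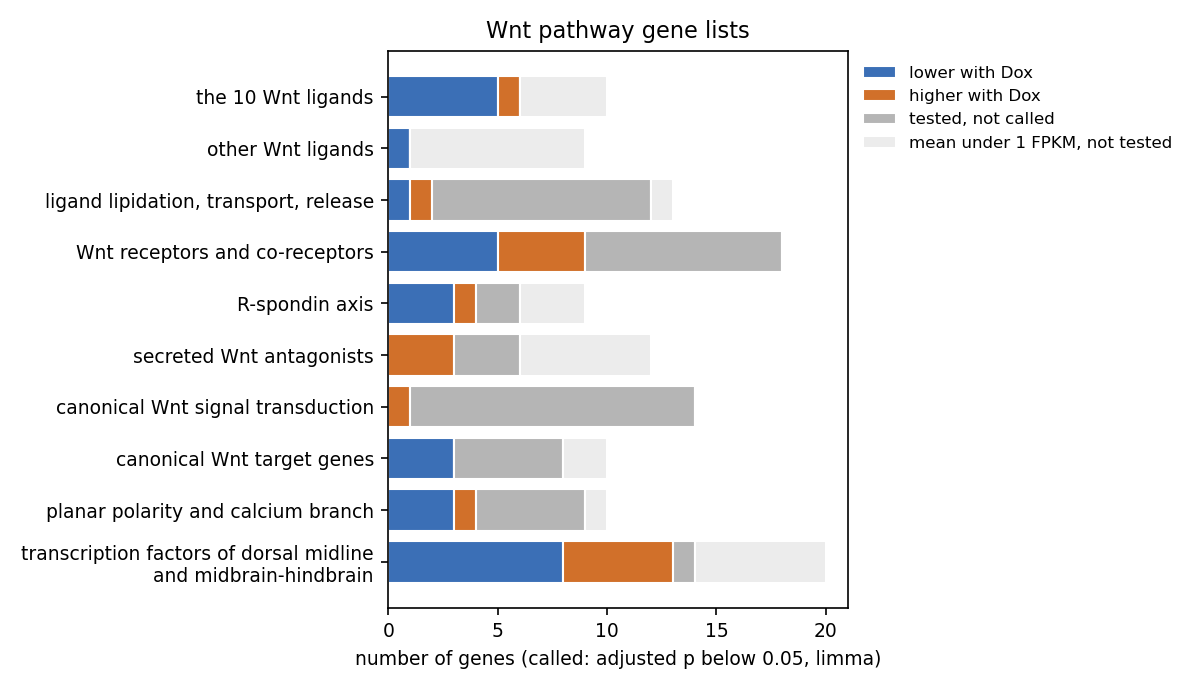
For the 10 Wnt ligands and 9 lists of Wnt pathway genes, bars count the genes called lower with Dox, called higher, tested but not called, and not tested because their mean was under 1 FPKM. The ligands have 5 lower and 1 higher, the signal transduction list has 13 of 14 tested genes not called, and the receptors have 5 lower and 4 higher.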

How the data were processed

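RNA was measured in 4 libraries of polyA-selected RNA, 2 untreated and 2 Dox, grouped by their treatment label. The authors deposited FPKM values, 1 column per library, rounded to 2 decimals. STAR, Cuffdiff and the build mm10 are named in the submitters' processing notes, with no version or role. The annotation release and the use of strand are not given in the sources used here. The labels give 1 batch date and mention separate rounds of library preparation without saying which library belongs to which.

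Genes whose mean reached 1 FPKM were tested with limma 3.58.1 (R 4.3.3) on log2(FPKM + 1), with eBayes and an intensity trend, no covariate, two-sided, adjusted by Benjamini-Hochberg over 13931 genes. Pseudocount, filter, scaling, variance model, a replicate block and left-out libraries were varied. Depth was fitted from single-transcript genes with low values, of which 85.2% to 86.3% came out as whole fragments (21.5% to 23.3% by chance), within a tolerance set by the rounding. Fragment numbers take 1 transcript per gene (GENCODE M21) and are approximate. Fits were tested on simulated data. The members and all lists were chosen with earlier results of these data known. Named were the 10 members, up to 4 called genes per list with the largest change and up to 2 uncalled genes with the highest mean, and the 3 genes most like the most abundant ligand. Same-numbered libraries did not deviate together (r = -0.0435). One gene of the eye-field marker list is not reported here.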

Additional observations from a re-analysis of the deposited data

How the results depend on the processing

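The 6 called ligands kept their direction and stayed called in every setting that tested them, the 4 fits that left out 1 library included, where the lone library was assumed to vary like the others. Without 1 library in turn, log2 fold changes ranged from -4.10 to -3.73 for Wnt8b, -3.71 to -3.46 for Wnt7b, -2.40 to -2.30 for Wnt1 and 0.91 to 1.07 for Wnt5b. The pseudocount moved the size of change further. With 0.1 and with 5 in place of 1, the log2 fold change was -3.09 and -1.24 for Wnt1, -2.48 and -0.66 for Wnt7a, -1.53 and -0.73 for Wnt5a, -4.15 and -3.22 for Wnt8b, -3.74 and -3.08 for Wnt7b, and 1.03 and 0.84 for Wnt5b. The highest adjusted p of the 4 fits without 1 library was 0.0395 (Wnt5b, limma). A minimum of 5 FPKM leaves 3 lower ligands, since Wnt5a and Wnt7a are no longer tested. The ratio of summed ligand FPKM was 4.46 after rescaling to TPM and 4.39 to 4.69 without 1 library. With the replicate block 1134 genes were called instead of 1297, and the ligand counts of 5 lower and 1 higher did not change.

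Over all genes, 678 were called lower and 619 higher. With no filter 409 and 336 were, with a minimum of 5 FPKM 413 and 408, and without 1 library 331 to 377 and 262 to 320. Lists were also run without each library, a choice made after seeing the data. With no filter, 2 other Wnt ligands and 1 antagonist were called lower, 2 receptors, 0 signal transduction genes and 3 transcription factors higher, and 0 planar polarity genes either way. Without 1 library, 0 to 2 planar polarity genes were called lower and 0 higher, 0 to 1 release genes, 0 to 1 signal transduction genes and 3 to 4 transcription factors higher. Uncalled genes near 0 changed sign. Ctnnb1 was at 0.0228 with quantile normalization. Without 1 library the log2 fold changes ranged from -0.0727 to 0.0037 for Ctnnb1, -0.0968 to 0.0258 for Ryk, -0.0673 to 0.180 for Celsr2, -0.0777 to 0.0952 for Nfatc3, -0.0707 to 0.0027 for Sfrp1, -0.0030 to 0.0605 for Tmed2 and -0.0021 to 0.236 for Ptk7. The causes were not tested. Depth limits Wnt2b, Wnt3a and the other ligands under 1 FPKM, since a value of 0.17 FPKM rests on about 13.6 fragments.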
